A study of Homo sapiens with 5 samples.

Results

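The 10 genes described here encode subunits, activators and regulators of the anaphase-promoting complex/cyclosome (APC/C), and they were taken by symbol from the 26364 names listed in a table of normalized read counts. The core group holds the 4 subunit genes ANAPC1, CDC16, CDC23 and CDC27. The partner group holds the 6 genes CDC20, FZR1, UBE2C, UBE2S, FBXO5 and PTTG1. All 10 passed the filter on low values, a mean of at least 10 normalized counts over the libraries, which 11313 genes passed.

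The data were mRNA-seq libraries of growing IMR-90 cells, a fibroblast strain from human lung with a finite life span in culture, taken 24 hr after siRNA was transfected. Of 5 libraries, 2 were from cells with a control siRNA (Ctr-KD) and 3 from cells with an siRNA against NSD2 (NSD2-KD), a histone methyltransferase that acts on H3K36. Each NSD2-KD library had its own siRNA, named NSD2-1, NSD2-2 or NSD2-3, so siRNA and replicate cannot be told apart, and each siRNA was measured in 1 library. All groups were the same cells in the same serum-containing medium, and neither a rescue nor an untransfected group was analysed here. The comparison asks which APC/C genes differ in mRNA level when NSD2 is depleted.

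The APC/C is a ubiquitin ligase that drives cells out of mitosis and holds them in G1 by marking cyclins and other proteins for the proteasome. Its core subunits form a scaffold that is present through the cell cycle, while it is switched on by a coactivator, first CDC20 and then FZR1, and is supplied with ubiquitin by the E2 enzymes UBE2C, which starts a chain, and UBE2S, which lengthens it. FBXO5 (EMI1) inhibits the complex in S and G2 phase, and PTTG1 (securin) is a substrate whose loss frees separase at anaphase. In cycling cells the genes for most of these partners are transcribed most strongly in G2 and mitosis, and resting cells transcribe them weakly.

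Sequencing depth was alike between libraries, with 2473691 to 2845063 reads on genes, and 3 reads, taken as the floor of detection, corresponded to 2.76 to 3.28 normalized counts. Between the Ctr-KD libraries the counts of 12373 genes gave a chi-square of 1.05 for each degree of freedom, close to counting noise alone. Pairs of a Ctr-KD and an NSD2-KD library gave 3.87 to 5.08. Pairs of NSD2-KD libraries gave 5.05 to 5.29, so these differed from each other at least about as much as from the controls. The limma fit pools the variance of both groups. Both Ctr-KD libraries were kept as replicates, as the study's methods call them biological replicates. Neither the labels nor the methods say that they were separate cultures, so the p-values measure only the spread between these samples, which may be technical. NSD2, listed under its older symbol WHSC1, had 463 and 443 normalized counts in the Ctr-KD libraries and 90.2, 81.9 and 87.9 with NSD2-1, NSD2-2 and NSD2-3. It fell by 2.37 on the log2 scale (SE 0.12, adjusted p = 0.000464, limma), and 18.1% to 19.9% of its Ctr-KD mean was left with each siRNA. Among fibroblast markers 9 of 10 passed the filter, and their summed level was 216800 to 221800 in Ctr-KD and 202200 to 228100 in NSD2-KD libraries, while S100A4 stayed below the filter. Of 5 epithelial, 4 endothelial and 4 leukocyte markers, 2, 2 and 3 were listed at 0 in every library, and the epithelial sum was 12.4 to 13.4 in Ctr-KD and 13.8 to 25.4 in NSD2-KD libraries. The endothelial sum reached at most 6.55, and the leukocyte sum, all of it from CD68, was 70.0 to 78.1 in Ctr-KD and 60.5 to 102.7 in NSD2-KD libraries.

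Promoter sequence is shown for 4 members because the partner genes differ in whether 2 short elements of G2 and mitosis genes, the cell cycle homology region (CHR) and the CCAAT box, are spelled near their start. The windows are from RefSeq on GRCh38.p14 and run from 250 bases before to 50 bases after an annotated start. They matched 9 of the 10 members, all but UBE2C. The letters TTTGAA or TTCGAA (CHR) and CCAAT were searched on both strands, and capitals mark each match, so a match on the other strand reads as its reverse complement. CDC20 at chr1:43358731-43359030 and PTTG1 at chr5:160421605-160421904 lie on the plus strand, FBXO5 at chr6:152982992-152983291 lies on the minus strand, and FZR1 at chr19:3506061-3506360 lies on the plus strand. All are written 5′ to 3′ in the direction of the gene.
CDC20: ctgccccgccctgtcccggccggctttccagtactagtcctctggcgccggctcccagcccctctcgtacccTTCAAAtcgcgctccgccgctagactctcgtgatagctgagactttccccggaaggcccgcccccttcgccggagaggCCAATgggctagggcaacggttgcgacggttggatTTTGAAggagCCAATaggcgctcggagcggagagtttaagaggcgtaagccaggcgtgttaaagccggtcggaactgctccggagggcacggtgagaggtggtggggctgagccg
FBXO5: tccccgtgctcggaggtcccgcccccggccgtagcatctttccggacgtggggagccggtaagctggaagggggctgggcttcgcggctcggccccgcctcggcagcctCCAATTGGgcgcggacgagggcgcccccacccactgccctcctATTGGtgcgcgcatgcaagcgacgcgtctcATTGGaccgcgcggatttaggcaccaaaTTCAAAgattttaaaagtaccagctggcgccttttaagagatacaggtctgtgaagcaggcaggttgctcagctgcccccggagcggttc
PTTG1: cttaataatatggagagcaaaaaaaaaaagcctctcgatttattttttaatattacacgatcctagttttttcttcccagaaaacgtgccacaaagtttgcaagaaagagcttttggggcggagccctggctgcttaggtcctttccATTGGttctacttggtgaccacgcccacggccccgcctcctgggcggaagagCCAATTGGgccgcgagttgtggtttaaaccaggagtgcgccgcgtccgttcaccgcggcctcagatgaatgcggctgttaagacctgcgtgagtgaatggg
FZR1: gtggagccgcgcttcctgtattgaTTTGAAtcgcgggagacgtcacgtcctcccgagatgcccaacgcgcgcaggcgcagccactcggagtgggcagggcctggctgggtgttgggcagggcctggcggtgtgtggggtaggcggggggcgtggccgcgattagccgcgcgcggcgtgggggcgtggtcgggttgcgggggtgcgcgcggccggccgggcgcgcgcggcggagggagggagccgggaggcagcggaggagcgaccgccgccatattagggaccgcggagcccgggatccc

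In the CDC20 window the CHR letters start 178 and 65 bases before the start site, and CCAAT starts 100 and 55 bases before it. The FBXO5 window shown, window 2 in the map of matches, holds a CHR match 40 bases before the start and 4 CCAAT matches, of which the pair at 141 and 138 bases overlaps. The other FBXO5 window, window 1 in that map and for another annotated start, holds neither. PTTG1 has 3 CCAAT matches in the window shown, those at 51 and 48 bases before the start overlapping, and no CHR letters, and its second window covers the same matches. FZR1 has a CHR match 226 bases before the start and no CCAAT in the window shown, and its second window, for another annotated start, holds neither. UBE2S has a single CCAAT match 191 bases before its start. Among the core subunits ANAPC1 has CHR letters 38 bases into the transcript, and CCAAT is found in CDC16 (183 bases before the start), CDC27 (226 bases) and CDC23 (98, 72 and 17 bases). The E2F spellings TTTCCCGC, TTTCGCGC, TTTGCCGC and TTTGGCGC were searched as well, and TTTCCCGC is found 187 bases before the start of CDC23 and 74 bases before that of CDC16. The CHR and CCAAT letters are common, since CHR is present in 16.4%, CCAAT in 34.6% and both together in 6.38% of 35116 such windows. An E2F spelling is rarer, at 3.31% of them. A match is a string of letters and not a bound site. Only the exact spellings given were searched, so a window without a match is not shown to lack a site.

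**Figure D1:**
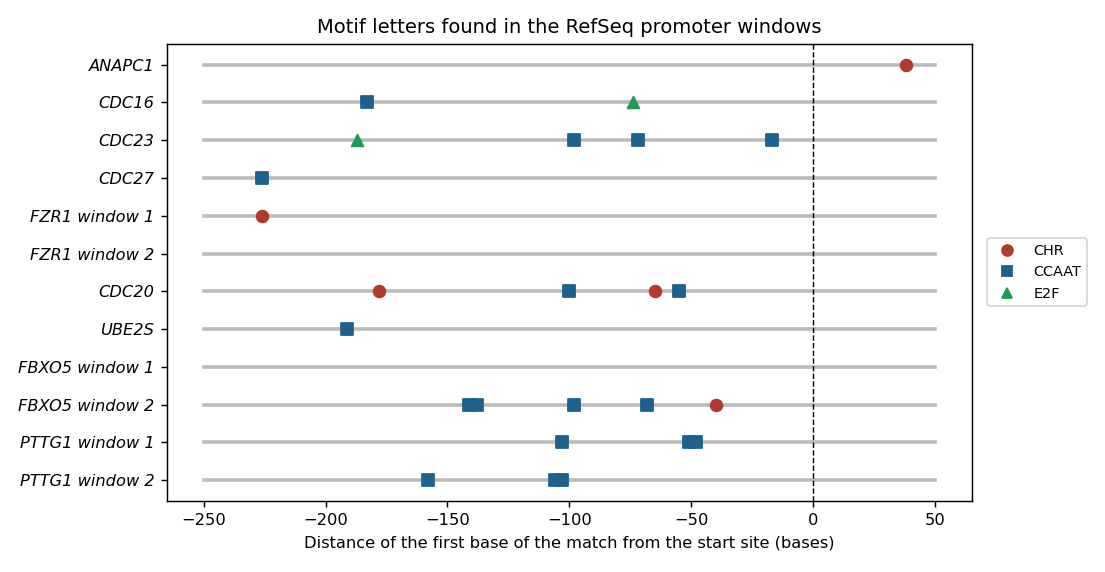
Matches to CHR, CCAAT and E2F letters in each RefSeq promoter window of the APC/C genes, plotted by the distance in bases of the match's first base from the start site (dashed line), with each window as a grey line. CDC20 and FBXO5 window 2 hold both CHR and CCAAT, PTTG1 and UBE2S hold CCAAT without CHR, and the E2F spellings are found in CDC16 and CDC23 only.

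CDC20, UBE2C, UBE2S, FBXO5 and PTTG1, which are 5 of the 6 partners, lay below both controls with every NSD2 siRNA, and none of the 4 core subunits did. Such a full separation below Ctr-KD was found in 13.9% and above it in 13.8% of the 11313 tested genes, and no member lay above. The median log2 difference, NSD2-KD minus Ctr-KD on the log2(normalized count + 1) scale, was -0.74 over the partners and -0.03 over the core subunits, against -0.0089 over all tested genes, whose middle 50% lay between -0.18 and 0.14. In these bulk libraries fewer cells in a phase and less mRNA per cell cannot be told apart.

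None of the 10 members passed an adjusted p under 0.05 in the main limma fit, where 0.053% of tested genes were called lower and 0.0354% higher. None passed in edgeR's quasi-likelihood test or limma-voom. At an unadjusted p under 0.05 in limma the same 5 partners were lower, while 4.99% of tested genes were lower and 4.19% were higher by that rule, and no member was higher. This count was 3 without Ctr-KD replicate 1 (CDC20, UBE2C and UBE2S) and 4 without Ctr-KD replicate 2 or without NSD2-2, and PTTG1 was lost in each case. DESeq2 on the recovered reads called CDC20 alone of the members (adjusted p = 0.0122). It called 0.471% of the 9339 genes with an adjusted p lower. At an unadjusted p under 0.05 in DESeq2 the count was 4, and PTTG1 was lost there too. The share of all tested genes under that rule was not taken in DESeq2 or with a library left out, so these counts stand without it. With the Ctr-KD libraries averaged as 1 sample the controls have no spread, so only the members' log2 differences are given. These were -1.05 for CDC20, -0.94 for UBE2C, -0.53 for UBE2S, -1.14 for FBXO5 and -0.50 for PTTG1.

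**Figure D2:**
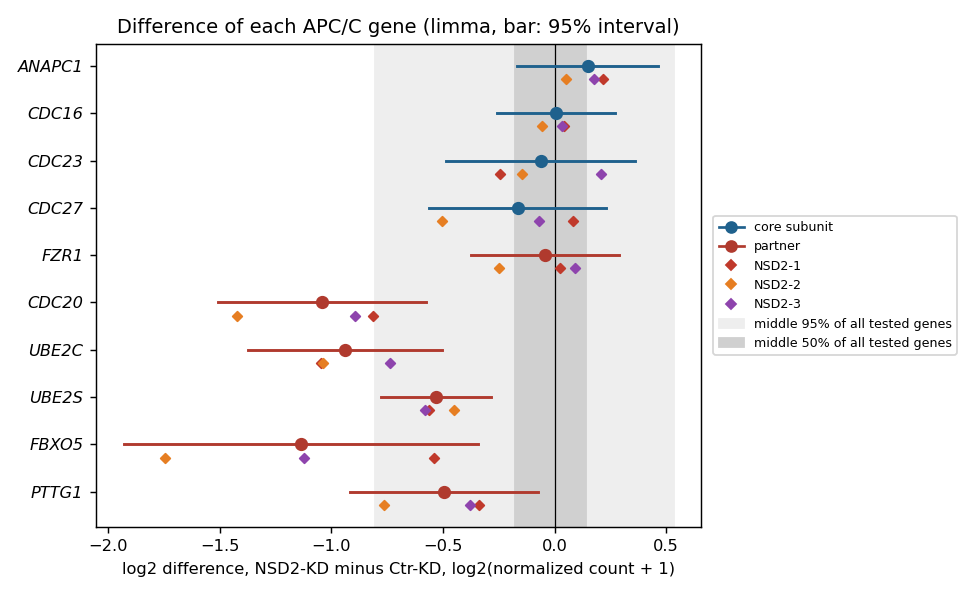
Log2 difference (NSD2-KD minus Ctr-KD) of each APC/C gene on the log2(normalized count + 1) scale, with circles for the limma estimate, bars for its 95% interval and diamonds for each siRNA against the Ctr-KD mean. The intervals of CDC20, UBE2C, UBE2S, FBXO5 and PTTG1 lie below 0, those of FZR1 and the 4 core subunits span 0, and the grey bands hold the middle 50% and 95% of all 11313 tested genes.

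The coactivators CDC20 and FZR1, which take turns in bringing substrates to the complex, differed in their values. CDC20, on chromosome 1 of GRCh37 (hg19) from 43824652 to 43828874, had 206.7 and 250.0 normalized counts in the Ctr-KD libraries and 128.8, 84.1 and 122.0 with NSD2-1, NSD2-2 and NSD2-3. Every NSD2-KD value was therefore below both controls, at 56.4%, 36.8% and 53.4% of the Ctr-KD mean. The means were 228.4 ± 30.6 (SD, n = 2) and 111.7 ± 24.1 (SD, n = 3), a log2 difference of -1.04 (SE 0.20, 95% interval -1.51 to -0.58, adjusted p = 0.197, limma). Ordered by p, it was number 47 of the tested genes.

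FZR1, on chromosome 19 from 3506309 to 3538332, had 167.7 and 172.8 normalized counts in Ctr-KD cells and 173.0, 143.1 and 181.6 in NSD2-KD cells. NSD2-2 lay below both controls and the other two siRNAs above them. The log2 difference was -0.04 (SE 0.14, 95% interval -0.38 to 0.29, adjusted p = 0.953, limma), and it was 0.06 without NSD2-2. Its exons share 74 bases with MFSD12 on the other strand, which is 1.43% of the transcript used here.

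The ratio of 2 genes within a library does not depend on the scaling between libraries. CDC20 over FZR1 was 1.23 and 1.45 in the Ctr-KD libraries and 0.745, 0.588 and 0.672 in the NSD2-KD libraries. These are ratios of counts that are not divided by transcript length, so their place above or below 1 does not say which mRNA was the more abundant. All 3 knockdown ratios were below both controls (means 1.34 ± 0.151, SD, n = 2, and 0.668 ± 0.0785, SD, n = 3). The exact two-sided permutation test gave p = 0.1, the smallest that 2 against 3 libraries allow, and 0.225 after Benjamini-Hochberg adjustment over the 9 ratios computed. A value under 0.05 was thus out of reach. The ratios use the same counts as the single genes, so they describe those values and are no separate support.

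Both E2 enzymes had lower values with each NSD2 siRNA than in either control, short of the adjusted threshold. UBE2C, on chromosome 20 from 44441215 to 44445596, had 96.2 and 81.3 normalized counts in Ctr-KD libraries and 42.3, 42.6 and 52.7 in NSD2-KD libraries. The highest knockdown value stayed well under the lowest control, and the siRNAs left 47.7%, 48.0% and 59.4% of the control mean. The means were 88.8 ± 10.6 (SD, n = 2) and 45.9 ± 5.92 (SD, n = 3), with a log2 difference of -0.94 (SE 0.19, 95% interval -1.38 to -0.50, adjusted p = 0.198, limma).

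UBE2S, on chromosome 19 from 55911113 to 55919156, had the most normalized counts of the members in Ctr-KD cells, with 450.6 and 420.8 normalized counts in Ctr-KD and 294.5, 317.9 and 290.9 in NSD2-KD libraries. The 3 siRNAs gave nearly the same level, 67.6%, 73.0% and 66.8% of the control mean, and UBE2S was the only partner for which NSD2-2 gave the highest of the 3 values. The log2 difference was -0.53 (SE 0.11, 95% interval -0.78 to -0.29, adjusted p = 0.198, limma). An annotated lincRNA on the same strand, CTD-2105E13.13, shares 675 bases or 26.4% of its transcript, and reads of both cannot be told apart there. UBE2C over UBE2S was 0.214 and 0.193 in Ctr-KD libraries and 0.144, 0.134 and 0.181 in NSD2-KD libraries, lower in each NSD2-KD library, with an exact two-sided permutation p = 0.2 (0.3 after adjustment over the 9 ratios).

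FBXO5, the inhibitor, and PTTG1, the substrate that guards separase, also had lower values with each siRNA, again short of the adjusted threshold. FBXO5, on chromosome 6 from 153291654 to 153304714, had 55.3 and 45.3 normalized counts in Ctr-KD libraries and 34.0, 14.2 and 22.5 in NSD2-KD libraries. These values rest on 58 and 44 reads against 37, 13 and 23 reads, the fewest of all members. The siRNAs left 67.7% (NSD2-1), 28.3% (NSD2-2) and 44.7% (NSD2-3) of the control mean, and the log2 difference was -1.14 (SE 0.35, 95% interval -1.93 to -0.34, adjusted p = 0.351, limma). It was the most negative difference among the members and had the widest interval. With a minimum mean of 50 normalized counts FBXO5 was not tested.

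PTTG1, on chromosome 5 from 159848862 to 159855746, had 101.9 and 115.2 normalized counts in Ctr-KD libraries and 85.6, 63.4 and 83.0 in NSD2-KD libraries. All 3 knockdown values were below both controls, at 78.8%, 58.4% and 76.4% of their mean. The log2 difference was -0.49 (SE 0.18, 95% interval -0.91 to -0.07, adjusted p = 0.448, limma). Relative to FZR1 in the same library, PTTG1 was 0.608 and 0.667 in Ctr-KD and 0.495, 0.443 and 0.457 in NSD2-KD libraries (exact two-sided permutation p = 0.1, the smallest possible), and FBXO5 was 0.330 and 0.262 against 0.197, 0.0992 and 0.124 (exact permutation p = 0.2).

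**Figure D3:**
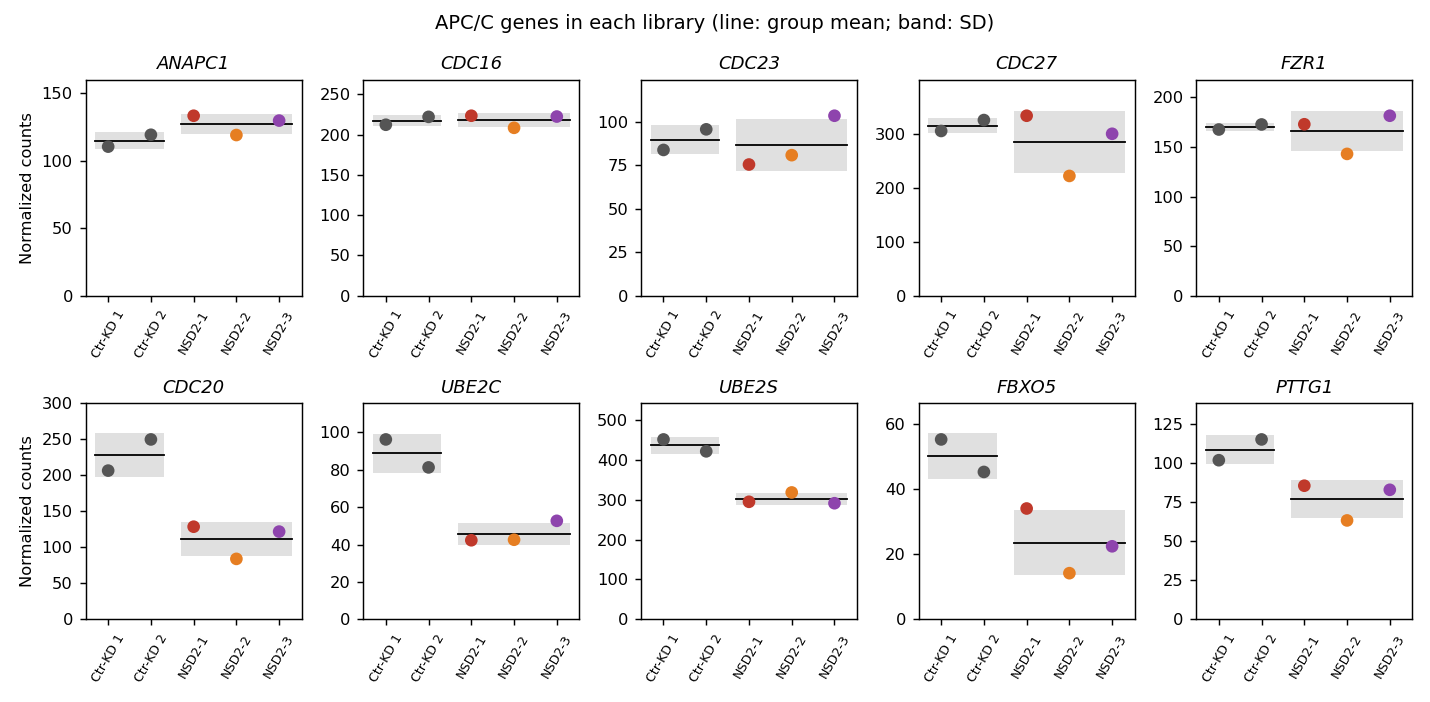
Normalized counts of the 10 APC/C genes in each library, with control libraries in grey and NSD2-1, NSD2-2 and NSD2-3 in red, orange and purple, the line at the group mean and the band at ± SD (n = 2 and n = 3). For CDC20, UBE2C, UBE2S, FBXO5 and PTTG1 the groups do not overlap, while for ANAPC1, CDC16, CDC23, CDC27 and FZR1 they do.

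The 4 core subunits each overlapped between the groups. ANAPC1, the large scaffold subunit, on chromosome 2 from 112369216 to 112642267, had 110.5 and 119.3 normalized counts in Ctr-KD libraries and 133.4, 119.1 and 129.8 in NSD2-KD libraries. NSD2-2 lay between the controls and the other two siRNAs above them, and the log2 difference was 0.15 (SE 0.14, 95% interval -0.17 to 0.46, adjusted p = 0.807, limma). Near-identical copies of part of this gene lie elsewhere on chromosome 2, so that of 305 tiles of 150 bases cut from its transcript only 186 (61%) matched best in the gene alone, and its count from uniquely mapped reads is uncertain to that extent. For the other 9 members the share was between 91.8% (UBE2S) and 100%.

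CDC16, CDC23 and CDC27 are subunits built of tetratricopeptide repeats, of which CDC27 helps to dock the coactivators. CDC16, on chromosome 13 from 115000362 to 115038198, was the steadiest member, with 212.4 and 222.2 normalized counts in Ctr-KD and 223.6, 208.6 and 222.6 in NSD2-KD libraries. Its log2 difference was 0.0058 (SE 0.11, 95% interval -0.26 to 0.27, adjusted p = 0.991, limma), and its sign turned in 5 of 17 alternative settings, with values from -0.03 to 0.04.

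CDC23, on chromosome 5 from 137523339 to 137549032, had 83.8 and 95.7 normalized counts in Ctr-KD libraries and 75.5, 80.8 and 103.5 in NSD2-KD libraries. The siRNAs lay on both sides of the controls, with NSD2-1 and NSD2-2 below and NSD2-3 above, and the log2 difference was -0.06 (SE 0.18, 95% interval -0.49 to 0.36, adjusted p = 0.948, limma). It was 0.03 without Ctr-KD replicate 2 and also 0.03 without NSD2-1. Exons of KIF20A, a mitotic kinesin gene on the other strand, share 74 bases with it, which is 2.36% of its transcript.

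CDC27, on chromosome 17 from 45195069 to 45266788, had 304.9 and 325.1 normalized counts in Ctr-KD libraries and 333.1, 221.7 and 299.7 in NSD2-KD libraries. NSD2-1 was above both controls and the lower mean of the knockdown (284.8 ± 57.1, SD, n = 3, against 315.0 ± 14.3, SD, n = 2) came mostly from NSD2-2 at 70.4% of the control mean. The log2 difference was -0.16 (SE 0.17, 95% interval -0.56 to 0.23, adjusted p = 0.831, limma), and without NSD2-2 it was 0.0052. Exons of an unnamed lncRNA and of a miRNA on the other strand overlap 2.16% and 1.54% of its transcript, and a lncRNA overlaps 3.9% of that of CDC16. The lower bounds of the intervals of the 4 core subunits ran from -0.17 (ANAPC1) to -0.56 (CDC27), the last beyond the difference measured for PTTG1, so equal levels are not shown.

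Within a library, UBE2C over CDC27 was 0.316 and 0.250 in Ctr-KD and 0.127, 0.192 and 0.176 in NSD2-KD libraries, without overlap (exact two-sided permutation p = 0.1, adjusted over the 9 ratios 0.225). UBE2S over CDC27 overlapped, at 1.48 and 1.29 against 0.884, 1.43 and 0.971 (exact permutation p = 0.3), and CDC27 was itself low with NSD2-2. Of the ratios among core subunits, CDC27 over CDC16 overlapped (1.44 and 1.46 against 1.49, 1.06 and 1.35, exact permutation p = 0.6). CDC23 over CDC16 did too (exact permutation p = 0.7). ANAPC1 over CDC16 was 0.520 and 0.537 against 0.597, 0.571 and 0.583, a small difference without overlap (exact permutation p = 0.1).

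**Figure D4:**
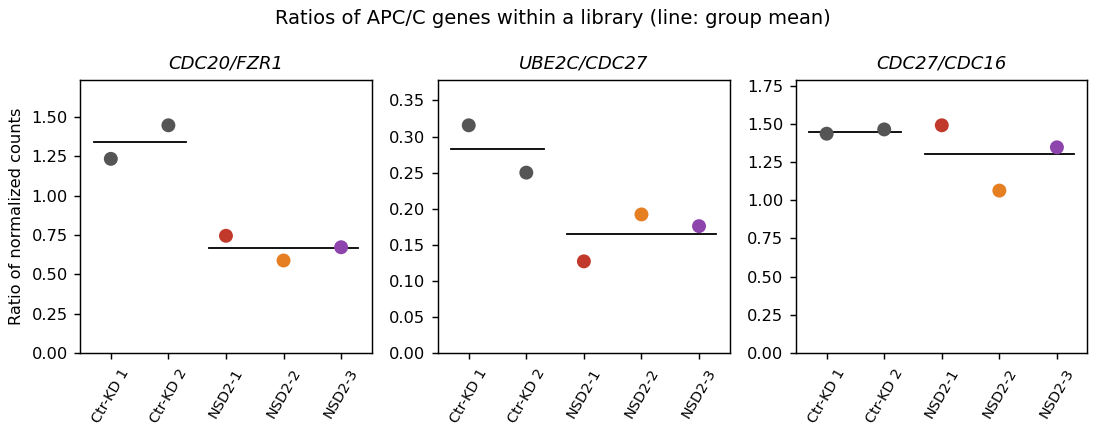
Ratio of the normalized counts of 2 APC/C genes within each library, with lines at the group means (n = 2 Ctr-KD, n = 3 NSD2-KD). CDC20/FZR1 and UBE2C/CDC27, which are not corrected for transcript length, are lower in all 3 knockdowns than in both controls, and CDC27/CDC16 overlaps between groups.

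The siRNAs did not give equal values. Against the Ctr-KD mean the median log2 difference of the 6 partners was -0.55 with NSD2-1, -0.90 with NSD2-2 and -0.66 with NSD2-3, and that of the 4 core subunits was 0.06, -0.10 and 0.11. NSD2-2 gave the lowest of the 3 values for 4 of the 6 partners (CDC20, FZR1, FBXO5 and PTTG1) and for 3 of the 4 core subunits. It was also the library with the fewest reads on genes (2473691) and had the lowest NSD2 level of the 3. With 1 library for each siRNA these differences were not tested, and the part of depth in them was not tested.

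Levels of different genes can be set side by side only per length, and for this the normalized counts were divided by the length in kb of 1 reference transcript. In Ctr-KD cells UBE2S stood highest with a mean of 170.3 per kb, followed by PTTG1 (151.9) and CDC20 (138.5), whose libraries overlapped, and by UBE2C (114.2). The core subunits followed in unequal amounts, with CDC16 at 93.2 and CDC27 at 54.0 per kb. FZR1 came next with 32.9, then CDC23 with 28.7 and FBXO5 with 24.5 per kb, which overlapped, and ANAPC1 was lowest with 14.8. The coactivator CDC20 was thus at a higher level per kb than FZR1 in every library.

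In NSD2-KD cells the order of mean levels per kb was UBE2S (117.7), PTTG1 (108.1), CDC16 (93.6), CDC20 (67.7), UBE2C (59.1), CDC27 (48.9), FZR1 (32.0), CDC23 (27.6), ANAPC1 (16.4) and FBXO5 (11.5). CDC16 stood above CDC20 and UBE2C in all 3 knockdown libraries, and below both in the 2 controls. More neighbours overlapped here than in Ctr-KD cells. The libraries of UBE2S and PTTG1, PTTG1 and CDC16, CDC20 and UBE2C, UBE2C and CDC27, FZR1 and CDC23, and ANAPC1 and FBXO5 were not separate. Transcript length is that of 1 isoform for each gene, and ANAPC1 and UBE2S carry the limits on shared sequence given above.

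Beyond the members, 10 other subunits of the APC/C were listed. All 10 were tested, none passed the adjusted or the unadjusted threshold, 3 were below both controls in every NSD2-KD library (ANAPC5, ANAPC11 and ANAPC15) and 1 was above (ANAPC2), against 13.9% and 13.8% of all tested genes, and their median log2 difference was -0.14. The lowest were ANAPC5 (-0.37, 288.7 and 293.2 normalized counts against 258.6, 162.8 and 268.4) and ANAPC15 (-0.32), and the highest ANAPC10 (0.18) and CDC26 (0.10). ANAPC2, which with ANAPC11 forms the catalytic part of the ligase, had 114.3 and 112.1 normalized counts in Ctr-KD and 120.5, 118.0 and 125.9 in NSD2-KD libraries.

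Among 8 further regulators, 7 were tested, FBXO43 being below the filter, and the median log2 difference was -0.27 with 2 below and 1 above both controls in all NSD2-KD libraries, where all tested genes gave 13.9% and 13.8%. The lowest was CCNF, which encodes cyclin F, an F-box protein of another ubiquitin ligase, with 143.9 and 145.1 normalized counts in Ctr-KD and 66.3, 31.7 and 77.1 in NSD2-KD libraries. Its log2 difference was -1.39 (SE 0.34, adjusted p = 0.267, limma). RASSF1 followed at -0.31, while CUEDC2 (0.36, adjusted p = 0.53, limma) and RAE1 (0.18) were the highest.

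The spindle checkpoint holds CDC20 inactive until all chromosomes are attached. Of 8 genes listed for the checkpoint and its regulation, all had a negative log2 difference. Among them 7 were below both controls in every NSD2-KD library (13.9% of all tested genes were). With an unadjusted p under 0.05 in limma 6 were lower (4.99% of all tested genes were), and none passed the adjusted threshold. The median was -0.96. BUB1, a checkpoint kinase, had 141.0 and 134.8 normalized counts in Ctr-KD and 63.5, 37.1 and 60.5 in NSD2-KD libraries (log2 difference -1.38, SE 0.24, adjusted p = 0.164, limma). BUB1B, a part of the complex that binds CDC20, followed at -1.08, and the least negative were MAD2L1BP (-0.31) and MAD1L1 (-0.20).

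The list of known APC/C substrates holds 22 genes besides PTTG1, all of them tested. Of these, 21 were below both controls in every NSD2-KD library, against 13.9% of all tested genes, and 21 were lower with an unadjusted p under 0.05, against 4.99%. The median log2 difference was -0.95. RRM2, a subunit of ribonucleotide reductase, was the 1 that passed the adjusted threshold, and it fell from 388.7 and 411.5 normalized counts to 122.4, 127.8 and 124.0 (log2 difference -1.67, SE 0.12, adjusted p = 0.00228, limma). CDCA5 (sororin, which protects cohesion) was next with -1.57, and the least negative were FOXM1 (-0.64) and SKP2 (-0.38). SKP2, with 125.9 normalized counts for NSD2-3 against 96.2 and 73.0 in the controls, was the substrate whose libraries overlapped.

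The SCF ligase and other E2 enzymes belong to other ubiquitin pathways, and they are set beside the APC/C genes by counts only. Of 9 genes listed for the SCF, none was below both controls in every NSD2-KD library and 3 were above. The shares of all tested genes were 13.9% and 13.8%, and the median log2 difference of the list was 0.03. This list is wider than the ligase core, since it also holds F-box genes such as FBXW7, the E2 gene UBE2R2 and NEDD8. The F-box gene CCNF was counted among the regulators above and not here, so these counts depend on how the list was drawn. The lowest were FBXW7 (-0.27) and NEDD8 (-0.09), and the highest RBX1 (0.36) and UBE2R2 (0.33). Of 29 other E2 genes, 4 were below and 3 above, which is near those shares, with a median of 0.01. None of either list passed the adjusted threshold. With an unadjusted p under 0.05 in limma 4.19% of all tested genes were higher and 4.99% were lower. This unadjusted threshold was reached by UBE2R2 of the SCF list and UBE2H of the E2 genes, both higher. It was also reached by UBE2T, which was lower. UBE2T, the E2 of the Fanconi anemia pathway, stood apart among them, with 44.8 and 49.4 normalized counts against 24.8, 16.4 and 19.5 (log2 difference -1.20, SE 0.25, adjusted p = 0.201, limma). UBE2V2 followed at -0.38, and UBE2L6 and UBE2H were the highest, each at 0.23.

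**Figure D5:**
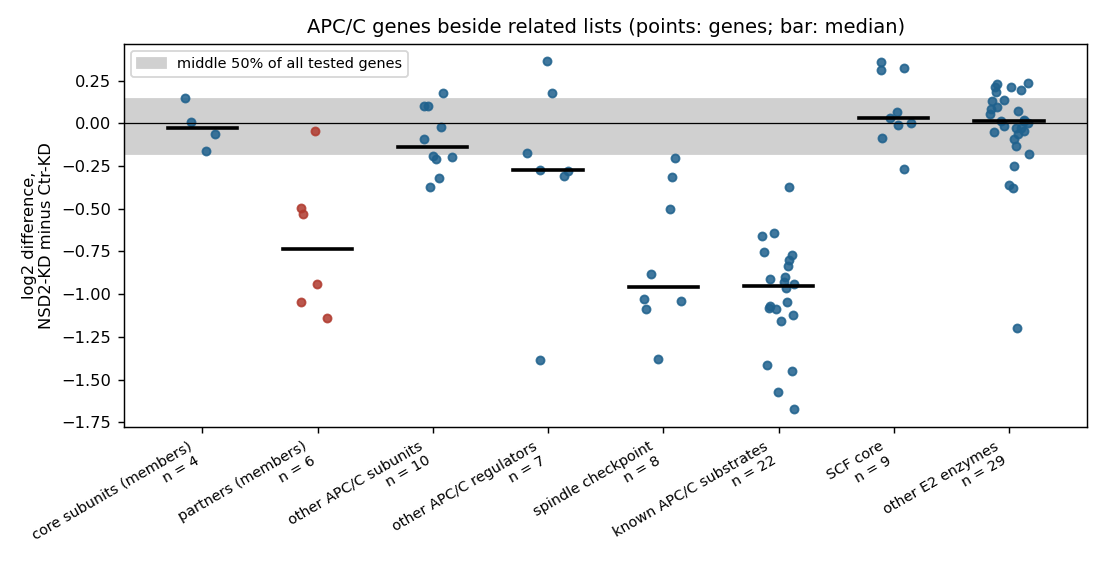
Log2 difference (NSD2-KD minus Ctr-KD) of every tested gene in the member groups and in 6 related lists, with a black bar at each median and the middle 50% of all tested genes in grey. The medians are -0.03 for the core subunits, -0.74 for the partners, -0.14 for other APC/C subunits and -0.27 for other regulators. They are -0.96 for the spindle checkpoint, -0.95 for known substrates, 0.03 for the SCF list (labelled SCF core) and 0.01 for other E2 enzymes.

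The same promoter letters were counted in these lists by gene. CHR letters were found in 5 of 6 spindle checkpoint genes with a window, in 8 of 19 substrates, in 3 of 5 partners, in 1 of 4 core subunits, in 2 of 10 other subunits and in 2 of 23 other E2 genes, against 19.5% of 27305 genes. CCAAT was found in 15 of the 19 substrates, in 4 of the 5 partners, in 3 of the 4 core subunits, in 2 of the 6 spindle checkpoint genes, in 3 of the 10 other subunits and in 7 of the 23 other E2 genes, against 39.7% of genes. The 3 partners with CHR letters include FZR1, whose libraries overlapped between groups. FZR1 and FBXO5 have the match only in the window shown. UBE2S and PTTG1, which lay below both controls, have no CHR letters in their windows. A relation of the letters to the differences was not tested. UBE2C had no window. In the SCF list CHR letters were found in 2 of 8 genes with a window and CCAAT in 3 of 8. Among the other regulators CHR letters were found in 1 of 5 and CCAAT in 3 of 5. An E2F spelling was found in 4 of the 19 substrates, in 2 of the 4 core subunits and in 0 of the 5 partners, against 3.99% of genes.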

How the data were processed

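Reads of 5 poly(A) mRNA-seq libraries were trimmed with Trimmomatic, mapped to hg19 with HISAT2, filtered for unique alignments with SAMtools and counted per gene with featureCounts by the authors. The deposited signal is that count divided by 1 DESeq2 size factor per library, so that a change shared by all genes would not show. The annotation and strand setting are not given in the sources used here, and overlapping genes are therefore uncertain. A second deposited table with the authors' fold changes, standard errors, Wald statistics and p-values was not used.

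In each library 100% of values were whole multiples of 1 read (tolerance 0.01), which recovered the reads for count tests. The main test was limma 3.58.1 (R 4.3.3) on log2(normalized count + 1), its prior variance following mean expression, for the 11313 genes with a mean of at least 10, with Benjamini-Hochberg adjustment over all of them and a threshold of 0.05. This scale understates changes of genes with low counts. Alternatives were pseudocounts of 0.5 and 5, no filter, a minimum of 50, no trend, robust estimation, quantile normalization, edgeR 4.0.16, DESeq2 1.42.0, limma-voom, the replicate number as a block and each library left out. Averaging the Ctr-KD libraries was added after the data had been seen. The ratios were not among the planned comparisons. They were compared by the exact permutation test and adjusted with SciPy 1.17.1. The fits were tested on simulated data. Intervals cover the spread between libraries, and counting error limits FBXO5 most.

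The members and lists were chosen with earlier results of these data known. All members are named, and from each list the 2 lowest and 2 highest genes by log2 difference. ANAPC2, ANAPC11, S100A4 and CD68 were named after their values were seen. Coordinates are from GENCODE on GRCh37, the assembly of hg19, and transcript tiles of 150 bases (step 25) were placed on it with minimap2 2.31-r1302. Of the listed names, 28 look like dates and were left as they are.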

Additional observations from a re-analysis of the deposited data

How the results depend on the processing

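Over 17 alternatives, CDC20 (-1.18 to -0.85), UBE2C (-1.06 to -0.82), UBE2S (-0.58 to -0.48) and PTTG1 (-0.58 to -0.36) kept a negative log2 difference, as did FBXO5 (-1.43 to -0.83) in the 16 that tested it, and ANAPC1 stayed positive (0.09 to 0.20). No member passed the adjusted threshold except CDC20, with DESeq2 (adjusted p = 0.0122) and with the replicate block in limma. In each of these 1 member was called, against 0 in the main limma fit. Over all genes DESeq2 called 44 lower and 14 higher of 9339. The block fit called 84 lower and 18 higher of 11313, where the main fit called 6 and 4. The median of the core subunits ran from -0.10 to 0.04 and that of the partners from -0.80 to -0.53, the last (-0.532) with a minimum mean of 50, where FBXO5 was not tested.

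Members near 0 changed sign. CDC16 was at -0.0013 with quantile normalization, -0.0085 with the replicate block, -0.026 without Ctr-KD replicate 1, -0.012 without NSD2-1 and -0.0085 without NSD2-3. CDC23 was at 0.033 without Ctr-KD replicate 2 and 0.030 without NSD2-1, CDC27 at 0.0052 and FZR1 at 0.058 without NSD2-2. With each library left out, CDC16 ran from -0.026 to 0.038, CDC23 from -0.20 to 0.033, CDC27 from -0.29 to 0.0052 and FZR1 from -0.11 to 0.058. The cause was not tested.

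The count over all genes, 6 lower and 4 higher, was 1 and 0 without the trend, 11 lower with edgeR, 8 higher with quantile normalization, and 44 and 14 with DESeq2. No count is given with the Ctr-KD libraries averaged, where the controls have no spread. With each library left out it was 0 to 22 lower and 0 to 8 higher. The replicate numbers were treated as shared labels only, since the numbers of the NSD2-KD libraries are those of their siRNAs. Deviations of same-numbered libraries from their group means had r of -0.0152 and -0.0267 across 11313 genes, which are not independent. The Ctr-KD libraries differ by little more than counting noise, so these r values cannot show whether the numbers mark a pairing. A fit with the number as a block, in which NSD2-3 adds nothing to the difference because no control shares its number, gave 84 lower and 18 higher genes and put CDC20 at -1.12 (adjusted p = 0.0449, limma). Depth limits FBXO5 most, at 13 to 58 reads.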
